A study of Mus musculus with 20 samples.

Results

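Fabp2, Hal, Adcy1, Slc16a8, Psca, Ctse, Chil1, AF529169, Jrk and Gm6612 were followed through 20 RNA-seq libraries of mouse plantaris tendon. These 10 genes, of 24885 in the count table, were selected on their counts, which were higher in KO than in WT tendon at day 7 and day 14 or in the mean of both days. No numeric threshold was set. The comparison of KO with WT is therefore a description for them and carries no test, and since it used all 4 of these groups, the changes between days given below rest on the same libraries and are descriptions too. All 10 were among the 18918 genes that passed the filter on low counts. Fabp2, Gm6612, Psca and AF529169 have so few counts in WT libraries that they could pass only through the KO groups.

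All mice carried floxed alleles of the IGF1 receptor gene, written IGF1Rflox/flox. WT mice were ScxCreERT2-/- and KO mice ScxCreERT2+/+, so the recombinase CreERT2, which tamoxifen activates, was driven from Scx, a transcription factor gene of tendon fibroblasts (tenocytes). WT day 0 mice received neither tamoxifen nor the growth stimulus to the tendon, whereas the mice of either genotype taken at day 7 or day 14 received both. Each of the 5 groups had 4 libraries, and no KO group without the stimulus was analysed here. Loss of Igf1r, the recombinase at Scx and any allele inherited with either differ between the genotypes together and cannot be told apart by this design. The labels read here do not tell whether each library is a separate animal, so p-values measure the spread between libraries.

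Library depth was 32.3 to 63.5 M counts, and levels are given as CPM, counts related to the library size after TMM scaling. Igf1r had means of 49.1 and 51.3 CPM in WT and KO at day 7 and 45.3 and 53.1 CPM at day 14, so its whole-gene count was not lower in the libraries labelled KO (edgeR adjusted p = 0.646 and 0.162). A whole-gene count need not show the loss of a floxed exon and so gives no check of the deletion. Scx was far higher in every KO library (557 to 1958 CPM) than in any WT library (31.4 to 141.6 CPM). Tenocyte markers summed to 50689 to 152333 CPM over all libraries, with none of the 14 at 0. Of them 7, Scx included, were called higher in KO on the mean of both days, where 10.5% of all genes were. At day 7 alone 6 were called higher, and at day 14 alone 2. Skeletal muscle fibre markers summed to 5055 to 12670 CPM in KO and 214 to 1644 CPM in WT at day 7, and to 1597 to 26662 and 2809 to 23641 CPM at day 14. Of these 16 markers 14 were called higher in KO at day 7 (median log2 difference 2.73), where 9.39% of all genes were, none at day 14, where 1.06% were, and 3 on the mean of both days. The part of either in the members' levels was not tested. In bulk tissue, fewer cells of a type and less RNA per cell cannot be told apart.

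The products of these genes belong to unrelated systems. Fabp2 is the intestinal fatty acid-binding protein, Hal starts the breakdown of histidine, Slc16a8 exports lactate from retinal pigment epithelium, and Adcy1 makes cAMP in response to calcium and calmodulin, mainly in neurons. Psca is a small surface protein anchored by a lipid, Ctse an aspartic protease of stomach and immune cells, and Chil1 a secreted chitinase-like protein of cartilage and macrophages. AF529169, named Minar1 in later annotation, encodes a membrane protein associated with the NOTCH2 receptor, Jrk a DNA-binding protein of the CENPB type, and Gm6612 is a processed pseudogene, that is, a copy of a spliced messenger RNA in the genome.

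The sequences below show the starts of the pair of genes with the highest KO to WT ratios among protein-coding members, and the pseudogene. The first pair are the 250 bases before the RefSeq start of each gene (GRCm38.p6, plus strand), Fabp2 at chr3:122894822-122895071 and Hal at chr10:93488518-93488767, with E-boxes in capitals. An E-box, CANNTG, is the letter pattern bound by basic helix-loop-helix factors, the family of Scx, and reads the same way on both strands. The last is the first 200 bases of the Gm6612 transcript (GENCODE vM21, GRCm38, plus strand, chr15:80952505-80952704). Capitals mark bases that differ from the aligned base of the Atp5g1 transcript. Places where Gm6612 lacks bases of Atp5g1 are not marked.
Fabp2: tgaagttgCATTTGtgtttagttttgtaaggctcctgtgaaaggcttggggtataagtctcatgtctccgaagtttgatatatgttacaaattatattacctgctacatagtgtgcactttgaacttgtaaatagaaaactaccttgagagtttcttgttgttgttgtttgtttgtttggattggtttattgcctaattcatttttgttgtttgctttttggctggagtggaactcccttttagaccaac
Hal: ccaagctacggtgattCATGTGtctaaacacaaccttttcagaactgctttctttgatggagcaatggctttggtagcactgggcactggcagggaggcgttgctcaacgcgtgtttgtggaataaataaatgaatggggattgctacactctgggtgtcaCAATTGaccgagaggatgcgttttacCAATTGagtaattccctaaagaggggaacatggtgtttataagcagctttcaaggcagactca
Gm6612: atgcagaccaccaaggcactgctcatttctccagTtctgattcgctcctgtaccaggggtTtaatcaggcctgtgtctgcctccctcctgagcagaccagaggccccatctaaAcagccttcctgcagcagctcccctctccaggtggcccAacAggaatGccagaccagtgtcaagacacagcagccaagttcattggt

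Windows were matched for 5 members. Fabp2 held 1 E-box, Hal 3, Chil1 2, Slc16a8 1 and Adcy1 1. For Adcy1 the bases checked after the RefSeq start were in none of its GENCODE transcripts, so its window is less certain. None of the 5 windows held the form CAGCTG, which is itself one of the CANNTG patterns. Among 32851 mouse promoter windows of the same length, 66.2% held at least 1 CANNTG and 13% held CAGCTG. The matches are descriptions of letters, and an E-box in such a window is common.

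Fabp2 (ENSMUSG00000023057, chromosome 3, 122895072 to 122899506, plus strand, 4 exons) was nearly silent in WT tendon and well measured in KO tendon. The WT day 0 libraries had 1, 1, 2 and 2 counts in the order of their replicate numbers, WT day 7 had 0, 2, 3 and 1, and WT day 14 had 0, 1, 0 and 0. KO libraries had 8.13, 14.1, 6.41 and 8.79 CPM at day 7 and 16.9, 6.78, 7.79 and 17.98 CPM at day 14, which are 229 to 705 counts each. The lowest KO library stood far above the highest WT library, at 0.0530 CPM. Summed over libraries, the ratio of KO to WT was 355 at day 7 (1958 against 6 counts, 95% counting interval 163 to 969.6) and 2229 at day 14 (1765 against 1 count, 399.6 to 88099). The fitted log2 differences were 8.38 ± 0.51 and 10.55 ± 0.63 (SE). Here and below, the SE of a log2 difference is that difference divided by the square root of its F statistic. It comes from the fit of all 20 libraries. With as few WT counts as here it can be too small, and the counting interval at day 14 is far wider. The day 14 value rests on the single count of WT day 14 replicate 2 and was 12.20 without that library, where it depends on the prior count and is no bound. Counting intervals here and below treat the counts summed over libraries as independent reads. They leave out the spread between libraries, and several reads can stem from 1 molecule, so the intervals can be too narrow.

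The KO libraries ranked much alike in Fabp2 and in Scx, a pattern noticed after the values were seen. At day 7 the order of the 4 KO libraries from high to low was the same for both genes, replicates 2, 4, 1 and 3. At day 14 replicates 4 and 1 led for both, and replicates 2 and 3 changed places. Fabp2 itself ranged 2.81-fold over the 8 KO libraries and its ratio to Scx 1.80-fold, from 7.67 to 13.8 Fabp2 CPM per 1000 Scx CPM. For each of the other 9 members the ratio to Scx ranged more widely than the level itself, 14.6-fold against 7.84-fold for Chil1 and 4.68-fold against 4.15-fold for Adcy1. The points share their library and its scaling factor, which cancels in the ratio.

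**Figure D1:**
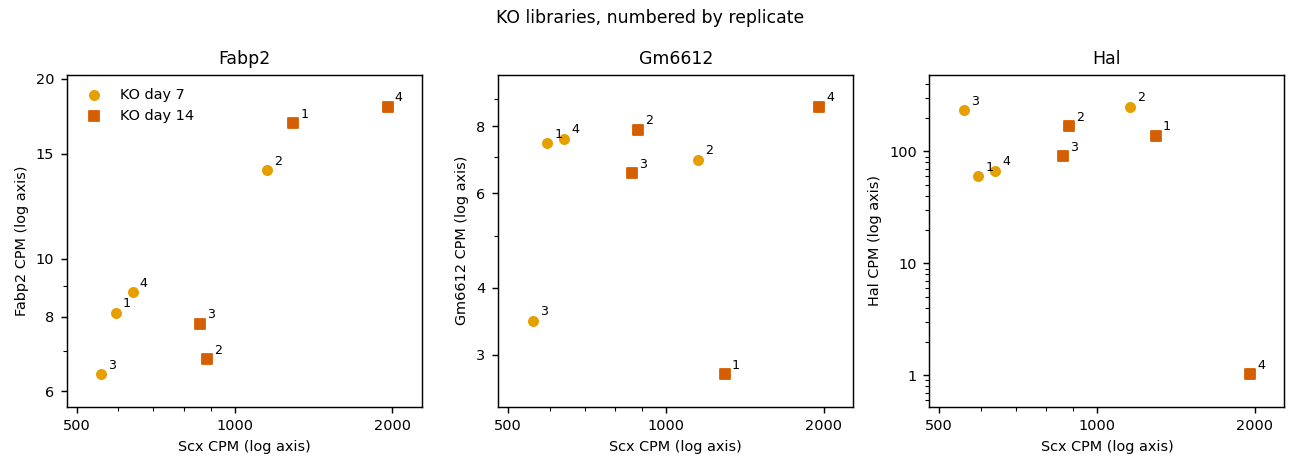
CPM of Fabp2, Gm6612 and Hal against CPM of Scx in the 8 KO libraries, both axes logarithmic, circles for day 7 and squares for day 14, numbered by replicate. Fabp2 is lowest, at 6.41 CPM, in the library with the least Scx and highest, at 17.98 CPM, in the library with the most, while Hal is lowest, at 1.02 CPM, in the library with the most Scx.

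Markers of intestinal epithelium, where Fabp2 is normally made, were at low and overlapping levels in both genotypes. The 8 of 13 listed markers analysed here summed to 12.9 to 14.8 CPM in KO and 12.2 to 17.7 CPM in WT at day 7, and to 13.9 to 19.2 and 14.1 to 22.0 CPM at day 14. On the mean of both days none of 6 tested was called higher in KO and 1, the keratin Krt20, was lower (log2 -1.06, adjusted p = 0.0298). Alpi, Apoa4, Cdx2, Fabp1 and Sis were not analysed here.

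Among 15 tested genes of fatty acid binding and transport, 1 was called higher and 2 lower on the mean of both days (edgeR adjusted p below 0.05, as throughout). The percentage called over all genes was 19% (10.5% higher and 8.51% lower). Dgat2, which completes triglyceride synthesis, was higher by 0.65 ± 0.19 on the log2 scale (adjusted p = 0.0238). Cd36, a fatty acid receptor, changed by -0.98 ± 0.19 (adjusted p = 0.00234), from 240.3 to 123 CPM in WT and KO at day 7. Mogat2, which makes diglyceride, changed by -1.38 ± 0.32 (adjusted p = 0.00611), from 1.20 to 0.673 CPM at day 7.

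Hal (ENSMUSG00000020017, chromosome 10, 93488768 to 93519304, plus strand) had the highest group means of the 10 genes per kilobase in KO tendon at both days, although Gm6612 was above it per kilobase in KO replicates 1 and 4 at day 7 and 3 and 4 at day 14. WT libraries had 0.367, 1.07, 0.541 and 2.74 CPM at day 0, 0.462, 0.508, 0.902 and 0.760 CPM at day 7, and 0.483, 0.251, 0.420 and 0.302 CPM at day 14. KO libraries had 60.1, 251, 235 and 67.2 CPM at day 7. At day 14 they had 138, 169, 90.7 and 1.02 CPM, so replicate 4 stood far below the next KO library and within the range of WT day 0. That library had 40 Hal counts where the other 3 had 3054 to 5701, and its Scx level was the highest of all.

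The log2 difference of Hal between KO and WT was 7.87 ± 1.15 at day 7 and 8.11 ± 1.22 at day 14. Without KO day 14 replicate 4 the latter was 8.52, and limma-voom, which averages logarithms, gave 6.68. Epidermis also makes Hal. The 14 keratinocyte markers summed to 849 CPM in KO day 7 replicate 2 and to 9.06, 21.7 and 10.9 CPM in replicates 1, 3 and 4, against 7.33 to 16.7 CPM in WT at that day. At day 14 the sums were 16.8 to 25.3 CPM in KO and 12.8 to 24.3 CPM in WT. In WT at day 0 they were 52.7, 89.0, 40.1 and 231.5 CPM in replicates 1 to 4, and replicates 4 and 2 were also the highest WT libraries in Hal. Of the 14 markers 6 were called higher in KO at day 7 and none at day 14. Without KO day 7 replicate 2 the day 7 difference of Hal was 7.54. The part of keratinocytes in the Hal levels was not tested.

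Amdhd1, whose enzyme acts later in histidine breakdown, starts 51.3 kb from Hal on the same chromosome and was also higher in KO. Its means were 0.113 and 0.566 CPM in WT and KO at day 7 and 0.113 and 0.323 CPM at day 14. The log2 difference was 1.88 ± 0.39 on the mean of both days (adjusted p = 0.00283). It passed at day 7 and not at day 14 (adjusted p = 0.00812 and 0.193). Of 14 tested genes of histidine and one-carbon breakdown, 2 were called higher and 1 lower. Cndp1, a carnosine-cleaving enzyme, was the other gene called higher (0.82 ± 0.25, adjusted p = 0.0292), and the related Cndp2 was lower (-0.27 ± 0.08, adjusted p = 0.0224). Within 500 kb of Hal, 7 of 12 tested genes were called, 4 of them higher, and within 1 Mb 8 of 19.

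Adcy1 (ENSMUSG00000020431, chromosome 11, 7063489 to 7178506, plus strand) was the only member with its highest group mean in WT tendon at day 0. WT day 0 libraries had 27.0, 28.5, 28.6 and 26.1 CPM. WT libraries then had 2.79, 3.46, 3.80 and 3.88 CPM at day 7 and 3.16, 5.87, 5.66 and 3.25 CPM at day 14. KO libraries had 4.89, 5.64, 6.72 and 4.91 CPM at day 7 and 19.3, 20.3, 9.69 and 12.4 CPM at day 14. Every KO library therefore lay above the WT libraries of its day and below every WT day 0 library. The fitted log2 differences of WT day 7 and day 14 from WT day 0 were -2.99 and -2.61. Over all genes 64.1% were called in the first of these comparisons (32.3% higher, 31.8% lower) and 54.3% in the second (28% higher, 26.2% lower).

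The KO minus WT log2 difference of Adcy1 was 0.67 ± 0.23 at day 7 and 1.78 ± 0.23 at day 14. In KO tendon Adcy1 had means of 5.54 ± 0.86 CPM at day 7 and 15.4 ± 5.18 CPM at day 14 (SD, n = 4), a log2 difference of 1.48 ± 0.23, with all 4 day 14 libraries above all 4 day 7 libraries. In WT tendon it had 3.48 ± 0.50 and 4.49 ± 1.48 CPM at those days, a log2 difference of 0.37 ± 0.23. The difference between these changes, the interaction of genotype and day, was 1.10 ± 0.32. The selection used the KO and WT levels of both days, so these differences are given as descriptions, with no p.

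Of 31 tested genes of adenylyl cyclases and cAMP signalling, 10 were called higher and 2 lower in KO on the mean of both days. At day 7 alone 5 were called higher and 2 lower, and at day 14 alone 0 were called. Adcy6 and Adcy3, other cyclases, were higher by 0.31 ± 0.07 and 0.37 ± 0.10 (adjusted p = 0.00318 and 0.0181), and Pde4b, which degrades cAMP, was lower (-0.68 ± 0.15, adjusted p = 0.00514). Neuron and Schwann cell markers, relevant because Adcy1 is a neuronal enzyme, summed to 325 to 434 CPM in KO and 341 to 398 CPM in WT at day 7, and to 389 to 462 and 378 to 441 CPM at day 14. On the mean of both days 1 of 11 tested was called higher, S100b (0.71 ± 0.16, adjusted p = 0.00509), with log2 differences of 1.51 at day 7 and -0.08 at day 14. Skeletal muscle fibre markers summed to 26830 to 68927 CPM in the WT day 0 libraries, where Adcy1 was highest, and to 214 to 1644 CPM in WT at day 7. Their part in the Adcy1 levels was not tested.

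Slc16a8 (ENSMUSG00000032988, chromosome 15, 79251014 to 79254761, minus strand) changed by a smaller ratio. WT libraries had 0.856, 0.553, 0.812 and 0.674 CPM at day 0, 0.274, 0.169, 0.336 and 0.380 CPM at day 7, and 0.386, 0.431, 0.223 and 0.705 CPM at day 14. KO libraries had 0.760, 0.820, 1.69 and 1.496 CPM at day 7 and 2.19, 2.04, 0.921 and 1.17 CPM at day 14. KO lay above WT at each day and overlapped with WT day 0. The log2 differences were 2.04 ± 0.37 and 1.85 ± 0.37.

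Gm49486, a predicted gene on the opposite strand whose body overlaps Slc16a8 without sharing exons, moved with it. Its log2 difference on the mean of both days was 1.60 ± 0.35 (adjusted p = 0.00438), and its means stayed below 0.5 CPM in all 5 groups. The difference passed at day 7 and not at day 14 (adjusted p = 0.0198 and 0.170). The strand setting of the counts is not given, so reads of this pair cannot be told apart where they overlap. Of 17 tested monocarboxylate transporters, their chaperones and lactate dehydrogenases, none was called higher and 2 were lower. These were the lactate transporter Slc16a1 (-0.51 ± 0.13, adjusted p = 0.0102) and the chaperone Emb (-0.39 ± 0.12, adjusted p = 0.0279). Markers of retinal pigment epithelium, 6 of 10 of them analysed here, summed to 4.79 to 6.11 CPM in KO and 5.90 to 6.82 CPM in WT at day 7 and to 5.71 to 8.12 and 4.76 to 6.82 CPM at day 14. On the mean of both days 1 of 4 tested was called higher, the retinol-modifying Lrat (1.60 ± 0.52, adjusted p = 0.0387). Lrat passed at neither day alone (adjusted p = 0.0925 and 0.383). It had 0.793 CPM in WT at day 0, beside 0.231 and 0.280 CPM in KO at day 7 and day 14.

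Psca (ENSMUSG00000022598, chromosome 15, 74714839 to 74717069, plus strand) was rare even where it was highest. WT libraries had 2, 0, 0 and 3 counts at day 0, 0, 0, 0 and 2 at day 7, and 0, 2, 1 and 1 at day 14. KO libraries had 40, 15, 22 and 15 counts at day 7 and 9, 8, 9 and 7 at day 14, or 0.252 to 0.620 CPM and 0.178 to 0.267 CPM. No KO library overlapped with a WT library. The ratio of KO to WT was 50.1 at day 7 (92 against 2 counts, 95% counting interval 13.5 to 419.9) and 10.4 at day 14 (33 against 4 counts, 3.71 to 40.5). Both day 7 WT counts came from replicate 4, and without that library the fitted log2 difference of 5.23 ± 0.79 became 7.32, a value set by the prior count.

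Jrk (ENSMUSG00000046380, chromosome 15, 74702301 to 74709535, minus strand) lies beside Psca and ranged 1.44-fold over the 8 KO libraries, the narrowest range of the 10 genes. WT libraries had 6.11, 6.88, 5.98 and 5.58 CPM at day 0, 5.92, 5.30, 6.19 and 6.33 CPM at day 7, and 4.85, 6.90, 8.09 and 5.11 CPM at day 14. KO libraries had 10.4, 12.7, 10.9 and 12.2 CPM at day 7 and 10.2, 11.6, 9.27 and 8.82 CPM at day 14. The lowest KO library, at 8.82 CPM, was above the highest WT library, at 8.09 CPM. The log2 differences were 0.96 ± 0.14 and 0.68 ± 0.14, the smallest of the 10 genes at day 14. The antisense gene 4933427E11Rik shares exon sequence with Jrk and had group means of 0.0464 to 0.1197 CPM.

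The nearest tested genes on the other side of Psca were called higher in KO on the mean of both days. Them6, an acyl thioesterase relative, was higher by 0.74 ± 0.12 (adjusted p = 0.00034). Slurp1, a secreted protein of the Ly6 family like Psca, was higher by 0.94 ± 0.28 (adjusted p = 0.029). At day 7 Them6 passed and Slurp1 did not (adjusted p = 0.000716 and 0.0511), and at day 14 neither did (0.147 and 0.416). Them6 had 12.8 CPM in WT at day 0, beside 12.7 and 7.44 CPM in KO at day 7 and day 14. Slurp1 had 11.2, 7.57 and 4.82 CPM in these groups. On the side of Jrk, the neuronal genes Arc and Adgrb1 had log2 differences of -0.36 ± 0.21 and -0.49 ± 0.43 that did not pass. Of 18 tested Ly6 and uPAR family genes 2 were called higher and 2 lower. Ly6k, the other one called higher, differed by 1.81 ± 0.40 (adjusted p = 0.00476), and Cd59a, a complement inhibitor, by -0.62 ± 0.14 (adjusted p = 0.00544). Ly6k passed at day 7 and not at day 14 (log2 2.77 and 0.86, adjusted p = 0.00392 and 0.481). Of 8 CENPB-type genes 1, Cenpb itself, was higher (0.30 ± 0.08, adjusted p = 0.0141) and 2, Tigd2 and Jrkl, were lower (-0.19 ± 0.06 and -0.27 ± 0.08).

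Ctse (ENSMUSG00000004552, chromosome 1, 131638306 to 131675505, plus strand) had all 4 WT day 7 libraries above all other WT libraries. WT libraries had 0, 0.325, 0.271 and 0.0722 CPM at day 0, 0.880, 1.07, 1.20 and 1.20 CPM at day 7, and 0.386, 0.215, 0.495 and 0.403 CPM at day 14. KO libraries had 7.75, 1.37, 6.67 and 15.2 CPM at day 7 and 3.47, 3.29, 4.55 and 3.80 CPM at day 14. KO day 7 replicate 2 was close to the WT libraries, and the day 14 libraries were close to each other. The log2 differences between KO and WT were 2.84 ± 0.53 and 3.35 ± 0.58.

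Between the days, Ctse had a log2 difference of -1.55 ± 0.58 in WT, with all 4 day 14 libraries below all 4 day 7 libraries. In KO it was -1.04 ± 0.49, and -1.39 without KO day 7 replicate 2. Stomach epithelium markers, 6 of 12 of them analysed here, summed to 0.563 to 1.42 CPM in all 20 libraries. Macrophage markers summed to 4434 to 6214 CPM in KO and 4297 to 7399 CPM in WT at day 7, and to 3067 to 3700 and 3465 to 4014 CPM at day 14, with none of 12 called higher and 3 lower on the mean of both days.

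Of 5 other aspartic proteases tested, Ctsd, the main lysosomal one, was lower in KO (-0.36 ± 0.06, adjusted p = 0.000897), and Bace1 was higher (0.18 ± 0.06, adjusted p = 0.0402). Pm20d1, a secreted enzyme that joins fatty acids to amino acids and the second tested gene above Ctse at 159 kb, was higher by 1.22 ± 0.19 (adjusted p = 0.000303). Its difference passed at each day (adjusted p = 0.00983 and 0.0153). Rab7b, between them, was not called (-0.10 ± 0.07, adjusted p = 0.333).

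Chil1 (ENSMUSG00000064246, chromosome 1, 134182176 to 134190181, plus strand) varied widely between libraries of a group. WT libraries had 11.3, 15.7, 1.37 and 2.86 CPM at day 0, 1.57, 1.76, 2.95 and 1.83 CPM at day 7, and 2.44, 0.988, 2.32 and 2.29 CPM at day 14. KO libraries had 23.5, 3.48, 4.08 and 14.8 CPM at day 7 and 4.50, 27.3, 6.36 and 5.30 CPM at day 14. KO and WT did not overlap within a day, but most KO libraries lay below WT day 0 replicates 1 and 2. The log2 differences were 2.50 ± 0.81 and 2.44 ± 0.82. They fell to 1.90 without KO day 7 replicate 1 and to 1.43 without KO day 14 replicate 2.

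Chit1, the active chitinase encoded 70.9 kb from Chil1, was higher in KO by 2.24 ± 0.45 (adjusted p = 0.00265), with 0.312 and 2.33 CPM in WT and KO at day 7. Of 8 tested chitinases and related genes 1 was called higher and 4 lower. Chil3, a macrophage lectin, changed the other way, by -1.57 ± 0.43 (adjusted p = 0.0192), from 35.3 to 10.2 CPM at day 7. Chondrocyte markers summed to 1350 to 2462 CPM in KO and 711 to 1202 CPM in WT at day 7, and to 1756 to 3997 and 1324 to 3030 CPM at day 14, with 7 of 11 tested called higher at day 7, none at day 14 and 5 on the mean of both days, and none lower. Their part in the level of Chil1, a gene of cartilage, was not tested.

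AF529169 (ENSMUSG00000039313, chromosome 9, 89587216 to 89623125, minus strand) was below 1 CPM in every library. WT libraries had 15, 11, 6 and 7 counts at day 0, 17, 10, 6 and 4 at day 7, and 1, 0, 0 and 2 at day 14. KO libraries had 41, 10, 31 and 37 counts at day 7 and 20, 30, 16 and 18 at day 14. KO day 7 replicate 2, at 0.248 CPM, lay just above the highest WT day 7 library, at 0.245 CPM, and on raw library sizes they overlapped (0.251 against 0.286 CPM). The ratio of KO to WT was 3.50 at day 7 (95% counting interval 2.40 to 5.21) and 35.4 at day 14 (84 against 3 counts, 11.7 to 174.9). The fitted log2 differences were 1.77 ± 0.48 and 4.94 ± 0.69, and the latter was 5.93 without WT day 14 replicate 4.

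The wider ratio of AF529169 at day 14 came with lower counts in WT, values on which the selection itself rested, so they too are given with no p. From WT day 7 to day 14 the counts went from 37 to 3, a ratio of 0.109 (95% counting interval 0.0214 to 0.343). The fitted log2 difference was -2.97 ± 0.76, with every WT day 14 library below every WT day 7 library. It was -3.96 without WT day 14 replicate 4. In KO the difference was 0.20 ± 0.44, and the interaction was 3.16 ± 0.89. Of 12 tested Notch receptors, ligands and targets, 4 were called higher in KO on the mean of both days and none lower. Among them were Notch1 (0.54 ± 0.12, adjusted p = 0.00408), Notch3 (0.81 ± 0.18, adjusted p = 0.00594) and the ligand Jag1 (0.18 ± 0.06, adjusted p = 0.0339). At day 7 alone 5 of the list were called higher, and at day 14 alone 0 were called.

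Gm6612 (ENSMUSG00000058357, chromosome 15, 80952505 to 80952899, plus strand, 395 bases) lies in an intron of Adsl, a purine synthesis gene on the same strand. WT libraries had 0, 1, 1 and 1 counts at day 0, 1, 0, 2 and 4 at day 7, and 1, 2, 2 and 2 at day 14. KO libraries had 7.43, 6.93, 3.47 and 7.58 CPM at day 7 and 2.76, 7.88, 6.54 and 8.69 CPM at day 14, which are 93 to 479 counts. The groups were far apart, with ratios of KO to WT of 217 (95% counting interval 105 to 541) and 166 (80.2 to 414). The log2 differences were 7.62 ± 0.50 and 7.26 ± 0.51, and the former was 8.40 without WT day 7 replicate 4, which held 4 of its 7 WT counts.

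The Gm6612 transcript matches that of Atp5g1, which encodes a subunit of the mitochondrial ATP synthase, at 92.2% of 411 aligned positions, with 16 mismatches and 16 gapped positions. The printed 200 bases hold 6 of the mismatched bases, and the longest stretch identical to Atp5g1 is 52 bases. Reads within such a stretch cannot be assigned to one copy by sequence. Atp5g1 itself was not higher in KO, with means of 12.2 and 9.52 CPM in WT and KO at day 7 and 13.4 and 9.61 CPM at day 14 (log2 -0.42 ± 0.15, adjusted p = 0.0592). Adsl, whose intron holds Gm6612, had a log2 difference of -0.01 ± 0.07 (adjusted p = 0.941), and Gm10039, another copy of Atp5g1, one of -0.44 ± 0.29 (adjusted p = 0.296).

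Read together, every one of the 10 genes had all 4 KO libraries above all 4 WT libraries at day 7 and at day 14 on the TMM scale, and 9 of them at day 7 on raw library sizes. Over all 18918 genes tested, this held for 14% at day 7, for 2.99% at day 14 and for 1.4% (264 genes) at both days. Since the members were chosen for this difference, nothing is read from their count. By edgeR, 14.8% of all genes were called at day 7 (9.39% higher, 5.42% lower) and 1.78% at day 14 (1.06% higher, 0.719% lower). All 8 KO libraries exceeded all 12 WT libraries, day 0 included, for Fabp2, Psca, Ctse, Jrk and Gm6612, a property of 63 genes or 0.333%. The median log2 difference of the members was 2.67 at day 7 and 3.30 at day 14, beside -0.01 over all genes at each day, and single values ran from 0.67 to 10.55.

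**Figure D2:**
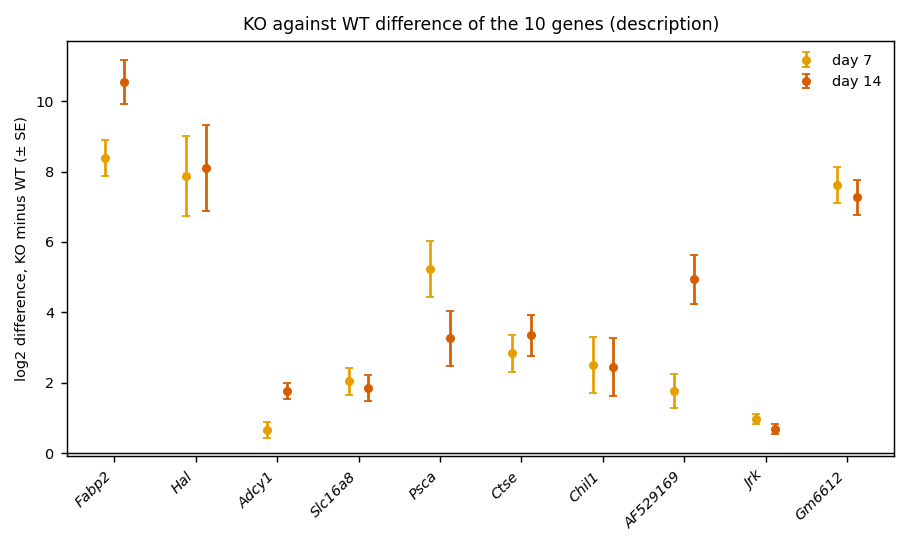
Fitted log2 difference between KO and WT for the 10 genes at day 7 and day 14, with SE bars from the fit of all 20 libraries. The bars can be too short where WT had few counts. Fabp2, Hal and Gm6612 lie between 7.26 and 10.55 at both days, and Jrk lies below 1 at both days.

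Per kilobase of exon, the members ranked in KO tendon at day 7 as Hal with 27.6 ± 18.7 CPM per kb, Gm6612 with 16.1 ± 4.91, Fabp2 with 9.69 ± 3.42 and Chil1 with 4.09 ± 3.41 (SD, n = 4). Ctse followed with 2.44 ± 1.80, Jrk with 1.97 ± 0.18, Slc16a8 with 0.523 ± 0.207, Psca with 0.481 ± 0.178, Adcy1 with 0.442 ± 0.069 and AF529169 with 0.0716 ± 0.0252. Apart from the steps from Jrk to Slc16a8 and from Adcy1 to AF529169, neighbours in this order differed by less than the sum of their SDs. In WT tendon at day 7 the order was led by Jrk with 1.01 ± 0.08 and Chil1 with 0.723 ± 0.223 CPM per kb, while Hal stood at 0.119 ± 0.038 and Fabp2 at 0.0274 ± 0.0233.

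Between the days, 1 of 10 members was called lower in WT, AF529169, and none higher, where 14.3% of all genes were called lower and 16% higher (30.4% in all). In KO, 1 of 10 was called higher, Adcy1, and none lower, where 7.09% were called higher and 8.57% lower (15.7% in all). Since the selection used the same libraries, nothing is read from these counts. For the interaction, edgeR called 0 of 10 members and 0 of 18918 genes (0%; lowest adjusted p 0.129), with 2039 genes at an unadjusted p below 0.05. limma-voom also called 0 genes and DESeq2 called 191, of which Adcy1 was the only member. For the members, nothing is read from these interaction calls either. In the authors' deposited table, which lists 7 of the 10 members, the last comparison is headed as KO at day 14 against WT at day 7. Its log2 values equal the difference between the KO effects at the 2 days in all 13266 genes (tolerance 1e-06), and 0 of these have a false discovery rate below 0.05.

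Psca, Jrk, Slc16a8 and Gm6612, 4 of the 10 members, lie on chromosome 15 with Scx (76457452 to 76459458, plus strand). Psca and Jrk start 1.74 and 1.75 Mb below the start of Scx, Slc16a8 2.80 Mb and Gm6612 4.50 Mb above it. Of all genes tested, 4.13% are on chromosome 15 and 1.09% start within 5 Mb of Scx. The other 6 members are on chromosomes 1, 3, 9, 10 and 11, with Ctse and Chil1 both on chromosome 1.

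Around Scx, with members and Scx left out, the share of genes called on the mean of both days did not rise steadily towards it. It was 16.2% within 1 Mb (12 of 74 genes), 29.4% from 1 to 2 Mb (10 of 34), 27.7% from 2 to 5 Mb (26 of 94) and 25.8% from 5 to 10 Mb (25 of 97). It was 18.5% from 10 to 20 Mb (20 of 108) and 19.7% farther away (73 of 370), beside 18.9% over all genes and 21.4% over all of chromosome 15. Bop1, whose body surrounds Scx, is in the first band and was higher by 2.10 ± 0.16 (edgeR adjusted p = 7.8e-08). Its means were 74.6 and 260 CPM in WT and KO at day 7 and 71.4 and 378 CPM at day 14. In the band that holds Psca and Jrk, 7 of the 10 called genes were higher in KO, and in the band that holds Slc16a8 and Gm6612, 20 of 26. Over all genes 10.4% were called higher, and in these bands 20.6% and 21.3%. In the band from 5 to 10 Mb, which holds no member, 17.5% were. At day 7 the bands with members had 20.6% and 17.0% called higher, beside 9.35% over all genes. At day 14 they had 0% and 1.06%, beside 1.01%.

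Within 500 kb, 3 of 16 genes near Psca and Jrk were called, all higher, beside 18.9% called over all genes. Near Slc16a8 12 of 44 were called, 9 of them higher, and near Gm6612 0 of 14. Widening the window to 1 Mb gave 4 of 23 near Psca and Jrk, 24 of 70 near Slc16a8 and 10 of 40 near Gm6612. On other chromosomes the counts within 500 kb were 2 of 8 for Fabp2, 7 of 12 for Hal and 4 of 16 for Ctse. They were 6 of 20 for Chil1, 2 of 6 for AF529169 and 0 of 4 for Adcy1. In this order 1, 4, 3, 4, 0 and 0 of them were higher. Within 1 Mb the counts were 5 of 18, 8 of 19, 7 of 35, 12 of 36, 3 of 14 and 5 of 18. Fnbp1l, the second gene below Fabp2, was lower (-0.51 ± 0.11, adjusted p = 0.00303). The nearest genes of Adcy1 and AF529169 were not called.

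**Figure D3:**
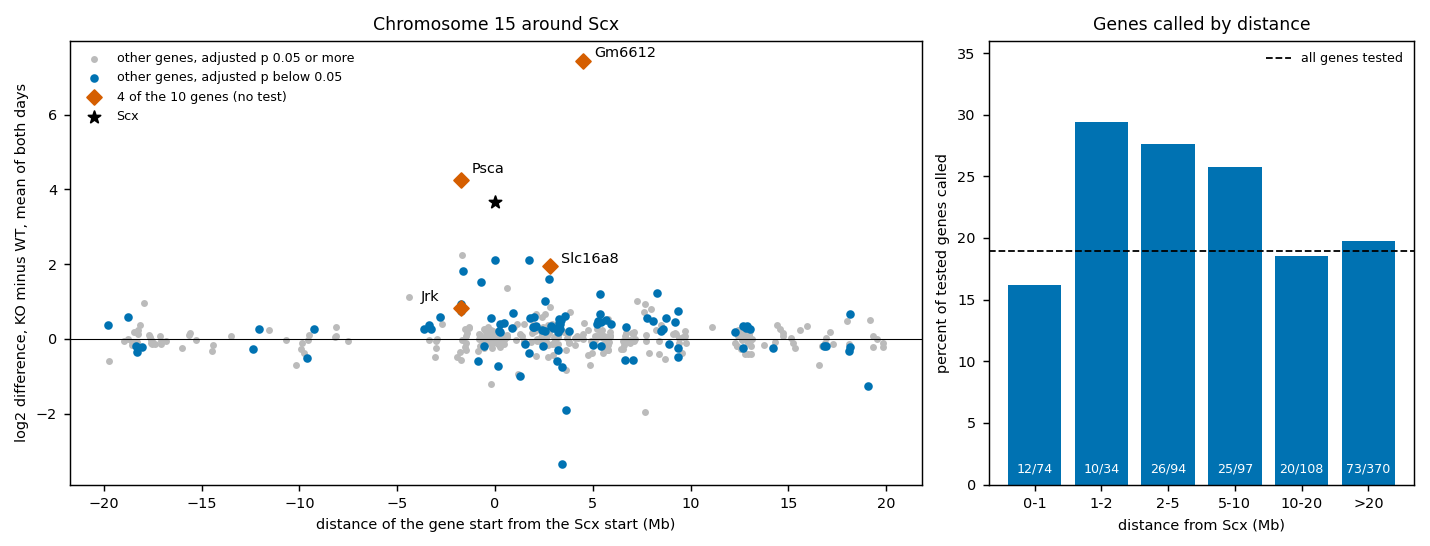
Left, the log2 difference between KO and WT (mean of both days) of genes within 20 Mb of Scx on chromosome 15 against the distance of their start from that of Scx, with the members as diamonds and Scx as a star. Right, the percentage of tested genes called in each distance band, members and Scx left out, with the numbers of genes and a dashed line at the 18.9% of all genes; the bands from 1 to 10 Mb lie above the line and the band within 1 Mb below it.

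The 2 tested genes most like each member in their pattern over the 20 libraries were sought. Likeness was the mean absolute difference of log2 CPM after each gene was centred on its own mean, and a small value means a like pattern. For Gm6612, Fabp2 and Hal the closest pair were Gm11814 (0.40, 0.55 and 1.14) and Rpl3-ps1 (0.61, 0.88 and 1.27). Gm11814, on chromosome 4, is a processed pseudogene with 88.7% identity to Ldha, and had 0.0660, 0.107 and 0.111 CPM in WT at day 0, 7 and 14 and 16.4 and 13.2 CPM in KO. Rpl3-ps1, on the X chromosome, is 99.8% identical to Rpl3 and went from 0.341 to 22.7 CPM at day 7. Psca was closest to Nudc-ps1 and Gm8494 (0.43 and 0.49) and Ctse to Gm6304 and Gm20075 (0.86 and 0.96).

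Slc16a8 was closest to its overlapping neighbour Gm49486 (0.38) and to Nkx3-2 (0.40), a transcription factor of cartilage. Jrk was closest to Arhgef40 and Nynrin (0.16 and 0.17) and AF529169 to Gm525 and the ephrin receptor Epha5 (0.60 and 0.68). Chil1 was closest to Tox and the clock gene Nr1d1 (0.79 and 0.80). Adcy1 was closest to the basement membrane collagen Col4a4 and to mt-Tm, a mitochondrial transfer RNA, which like it had their highest group mean in WT at day 0. The mean of mt-Tm in WT at day 7 was 0.0234 CPM. With a prior count of 0.5, mt-Tm, Nudc-ps1, Gm20075, Epha5 and, for Fabp2, Rpl3-ps1 were no longer among the closest genes. Of the 16 different genes named by this measure, 5 (31.3%) are processed pseudogenes. The members were selected for KO above WT, so the search tends to find genes with the same difference. Nothing is read from this share.

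A count of gene types was then made among the 63 genes with every KO library above every WT library, after the pattern had been seen. With the members and Scx left out, 11 of 57 (19.3%) are pseudogenes, and 2 of 57 start within 5 Mb of Scx, Bop1, which surrounds Scx, and Dnal4. Of all 18918 genes tested, 3.63% are pseudogenes. Pseudogenes share most of their sequence with a parent gene, and how reads that match more than 1 place were counted is not stated, so their counts, like those of Gm6612, are uncertain.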

How the data were processed

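The authors deposited whole-number counts per gene for 20 libraries; per the submitters' processing notes, the tools were FastQC, STAR and edgeR and the build mm10, while the counting tool, its strand setting and its treatment of multiply matching reads are not stated. The authors' deposited table of comparisons holds log2 fold changes and p-values from edgeR, per the file headers, and was used only where it is named.

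Counts were fitted over all 5 groups with edgeR 4.0.16 (R 4.3.3; TMM scaling, filterByExpr, robust quasi-likelihood F-tests, Benjamini-Hochberg adjustment over 18918 genes, threshold 0.05); 5967 genes failed the filter. CPM use TMM-scaled library sizes, and log2 CPM a prior count of 2. Depth was 32.3 to 63.5 M counts. Counting error is largest where a CPM rests on few counts. DESeq2 1.42.0, limma-voom (limma 3.58.1), other scalings, filters, samples and a replicate block were alternatives. The fit was tested on simulated data.

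Coordinates are from GENCODE vM21 (GRCm38) and promoters from RefSeq. Alignments used BLAST 2.17.0, with Python 3.11.15 and pandas 2.3.3, and figures matplotlib 3.10.9. Named genes were the members, Scx, Bop1 and Igf1r, the 2 genes most like each member, up to 2 nearest tested genes on each side, and up to 3 called genes of each list with the smallest p. Members and lists were chosen with earlier results of these data known. Atp5g1, Gm10039, Adsl, 4933427E11Rik, Dnal4, the ratio to Scx and the count of gene types were chosen after values were seen. Lists of neutrophil, endothelial and B cell markers were also summed: none of 6 neutrophil or 8 endothelial genes was called on the mean of both days, and 1 of 7 B and plasma cell genes was lower.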

Additional observations from a re-analysis of the deposited data

Results flagged for a closer look

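In each group of 4 libraries, the gap between the highest or lowest library and its nearest neighbour was divided by the range of log2 CPM and compared with Dixon's 95% critical value. Of 50 groups (10 members in 5 groups) 6 exceeded it, where chance gives about 1 in 20.

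Hal in KO day 14 replicate 4 was far below the other 3 libraries (ratio 0.877; 1.02 CPM, 40 counts). Gm6612 in KO day 7 replicate 3 was low (0.885; 3.47 CPM, 187 counts), and so was AF529169 in KO day 7 replicate 2 (0.890077; 0.248 CPM, 10 counts), the library with the high keratinocyte markers. Chil1 in WT day 14 replicate 2 was low (0.931; 0.988 CPM, 55 counts). Fabp2 in WT day 14 replicate 2 (ratio 1) and Psca in WT day 7 replicate 4 (ratio 1) were high only in that they held 1 and 2 counts where the other 3 libraries of the group held 0.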

How the results depend on the processing

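The KO minus WT difference of every member kept its sign under all alternatives run. The members were selected for that sign in the same libraries, so this is no check of it. Of 553 such values 544 moved by less than the spread between replicates. The other 9 concern Fabp2, Psca, Gm6612 and AF529169 without a single WT library and Fabp2 by limma-voom (9.57 at day 14). Of 548 values for days and the interaction, 543 kept their side of the threshold and 5 passed it: Ctse in WT in 3 alternatives, Ctse in KO without KO day 7 replicate 2, and Adcy1 in the interaction by DESeq2. Since the selection used the same libraries, the calls of members given here describe the fits and are no test of the members. With DESeq2, 2 members were called lower in WT between days, 191 genes and 1 member (higher) for the interaction, and 759 genes at day 14, against 1, 0, 0 and 337. With only the groups compared, 86 genes were called at day 14. Leaving out 1 library in turn gave 0 to 11 genes for the interaction (11 without WT day 7 replicate 1), 1440 (without WT day 7 replicate 2) to 2659 at day 7 against 2802, 152 (without WT day 14 replicate 1) to 1672 (without WT day 14 replicate 4) at day 14, 1693 (without KO day 14 replicate 1) to 2956 between days in KO against 2962, 2417 to 5211 for the mean of both days against 3587, and 4521 to 5912 between days in WT against 5745; members called lower in KO between days ranged from 0 to 1. The causes were not tested. Of 16 same-numbered pairs of libraries 5 correlated above 0.1 (-0.143 to 0.272), and pairs with different numbers ran from -0.307 to 0.345. These values cannot tell whether replicate numbers pair the libraries. With the replicate block 5879 genes were called between days in WT, 3146 in KO, 0 for the interaction, 3141 at day 7, 345 at day 14 and 3915 on the mean, and no member's call changed. On raw library sizes 49 of 50 group means moved by less than 1 SD, the exception being Jrk in WT at day 7 (6.67 CPM). With a prior count of 0.5, 15 of 20 pairs of like genes were shared. Depth limits Fabp2, Psca and Gm6612 in WT and AF529169 in WT at day 14, where a few counts set the ratio.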
